A study of Mus musculus with 26 samples.

Results

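Collagen chain genes were followed through the left ventricle of mice that carried Mst-1 overexpression, a galectin-3 knockout, both or neither. A member was any gene of the count table whose symbol was Col, a number, the letter a and a second number. By this rule 35 of the 15249 genes of the table were members. They were placed in 8 structural classes: 9 fibrillar chains, 6 chains of the basement membrane network, 2 short-chain network chains, 4 beaded filament chains, 6 FACIT chains, 2 multiplexin chains, 3 transmembrane chains and 3 others. Of 44 chains on the class lists, 9 were not in the table: Col2a1, Col24a1, Col10a1, Col6a4, Col6a5, Col9a1, Col9a3, Col19a1 and Col17a1. Genes with a mean of under 10 counts were not in the table.

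All mice were of the C57BL6 background and every library came from left ventricle, as total RNA depleted of ribosomal RNA. The groups were wild type (wt, 6 libraries), Mst-1 overexpressing (MstTg, 7), Gal-3 knock out (Gal3Ko, 8) and both alleles together (Mst1Gal3, 5). The study presents the Mst-1 overexpressing mouse as a model of dilated cardiomyopathy, a disease in which the ventricle widens and pumps weakly. The labels used here give no age, no sex and no promoter or cell type that drives Mst-1. They call the libraries of a group replicates without saying that each is a separate animal, so p-values measure the spread between these libraries.

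Collagens are proteins in which 3 chains wind into a triple helix. Fibrillar chains (types I, III, V and others) build the fibrils that give tissue its tensile strength, and FACIT chains sit on the surface of those fibrils. Type IV chains form the sheet-like network of basement membranes, which surround each cardiomyocyte and each capillary, and type VI chains form beaded filaments beside them. In the heart most interstitial collagen is made by fibroblasts, and more of it is deposited in fibrosis.

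The overexpressed and the deleted gene were read first. Stk4, which encodes Mst-1, lay at 22.4 to 26.1 CPM (counts scaled to the library's adjusted total) in wt and 21.0 to 25.9 in Gal3Ko. It reached 846 to 1066 CPM in MstTg and 840 to 1168 in Mst1Gal3. Lgals3, which encodes galectin-3, lay at 50.9 to 60.01 CPM in MstTg and at 2.54 to 5.43 in Mst1Gal3. It lay at 0.878 to 2.41 CPM in wt and 1.47 to 2.74 in Gal3Ko, so its level separated the Mst-1 groups by galectin-3 genotype but did not separate the libraries labelled Gal3Ko from wt. Library totals were 18580405 to 32663735 counts, and mitochondrial genes took 14.4% to 38.3% of them. In 6 libraries (named by group and replicate: wt 5, MstTg 5, Gal3Ko 4, 5 and 8 and Mst1Gal3 3) the atrial genes Sln, Myl7 and Myl4 summed to more than 30 CPM. Without those 6, the counts of called members in the 4 pairwise comparisons moved by at most 1. Some libraries stood apart in the members. The library wt 4 was the highest of its 6 for 21 of 35 members, Mst1Gal3 4 the highest of its 5 for 18 and Gal3Ko 8 the highest of its 8 for 18, while Gal3Ko 2 was the lowest of its group for 20. MstTg 1 was the lowest of its group for 18 and Mst1Gal3 1 for 17. Summed over the members, MstTg 4 was the highest library of its group, at 5671 CPM.

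Summed over the 35 chains, collagen RNA took 1735 to 2745 CPM in wt with a median of 1996, and 4249 to 5671 CPM in MstTg with a median of 4901. In Gal3Ko it took 1426 to 2078 CPM with a median of 1851, and in Mst1Gal3 3676 to 4986 CPM with a median of 4077. The ranges of the libraries with and without Mst-1 overexpression did not overlap. The sums carry no test, since the members were chosen with results of these data known. In bulk tissue a change in the number of cells that make a collagen and a change in the RNA per cell cannot be told apart.

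Per kb of annotated exon the basement membrane chain Col4a1 had the highest mean of the single chains in every group. The length is the union of all annotated exons of a gene, which can exceed that of the transcripts made. It was 12426 bases for Col1a2 and 6563 for Col1a1, whose mean wt levels were 138 and 140 CPM. The order here and all shares per kb below depend on these lengths. In wt Col4a1 stood at 66.1 ± 13.6 CPM per kb of exon (SD, n = 6) and Col4a2 at 57.0 ± 12.7, ahead of Col3a1 at 22.7 ± 4.09, Col1a1 at 21.3 ± 6.02 and Col15a1 at 19.7 ± 2.08. Neighbours in this order from Col3a1 to Col15a1 lay within their spread. In MstTg Col1a1 moved from the fourth place to the second at 95.2 ± 20.4 CPM per kb (SD, n = 7). Col4a1 stood above it at 102 ± 10.9 and Col4a2 below it at 82.2 ± 9.26, both within the spread of Col1a1. The chains were measured in the same libraries, so these SDs do not test the order of chains. The order in Gal3Ko began as in wt, and that in Mst1Gal3 began as in MstTg, with Col1a1 second at 79.1 ± 18.9 CPM per kb (SD, n = 5).

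The make-up of the collagen RNA differed between the groups accordingly. Basement membrane chains held 45.1% to 51.2% of collagen CPM per kb in wt and 30.6% to 33.9% in MstTg. The Gal3Ko libraries held 46.4% to 52.0% and the Mst1Gal3 libraries 31.4% to 36.6%. Fibrillar chains held 25.4% to 28.7% in wt and 36.1% to 41.3% in MstTg, and 24.6% to 28.8% in Gal3Ko with 34.2% to 41.1% in Mst1Gal3. FACIT chains held a median of 1.49% in wt and 4.84% in MstTg, and short-chain network chains 1.33% and 3.58%. No library with Mst-1 overexpression overlapped one without it in any of these 4 shares. Beaded filament chains had overlapping shares in the 4 groups, with medians of 13.4% in wt, 12.4% in MstTg, 13.4% in Gal3Ko and 13.2% in Mst1Gal3. Of the difference in mean CPM per kb between MstTg and wt, 45.8% lay in fibrillar chains, with Col1a1 alone at 20.6%, and 20.8% lay in basement membrane chains.

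**Figure D1:**
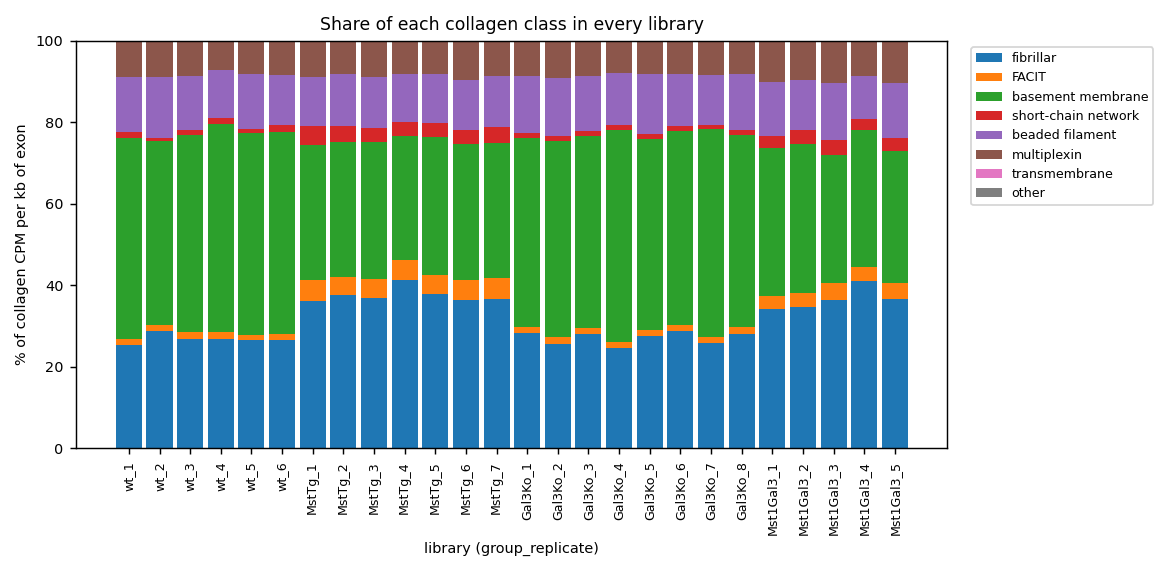
Share of each collagen class in the collagen CPM per kb of exon, as stacked bars that reach 100% for each of the 26 libraries. The basement membrane share is 45.1% or more in every wt and Gal3Ko library and 36.6% or less in every MstTg and Mst1Gal3 library, while the fibrillar share is higher in the latter groups.

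With Mst-1 overexpression most collagen chains of every class but the transmembrane one were higher. In MstTg against wt 30 of 35 chains rose, 1 fell and 4 did not pass the test (edgeR quasi-likelihood test, Benjamini-Hochberg adjusted over all 15249 genes, threshold 0.05). Over all genes 28.2% were called higher and 26.8% lower, and 55% in either direction. With unscaled library totals, which shift the median log2 change of all genes to 0.27, 7789 genes were higher and 2166 lower, against 4302 and 4083 here, and 32 members were higher. The members' median log2 change was 1.33 against 0.02 over all genes. The 2 groups did not overlap in CPM for 26 members, against 15.9% of all genes higher and 16.2% lower without overlap. In Mst1Gal3 against Gal3Ko, which shares no library with that comparison, 28 chains rose, none fell and 7 did not pass, with a median log2 change of 1.31 against 0.01 over all genes. There 26.9% of all genes were called higher and 25.6% lower. All 28 were among the 30 that rose in MstTg against wt, and the other two, Col11a2 and Col13a1, were not called in the second comparison.

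**Figure D2:**
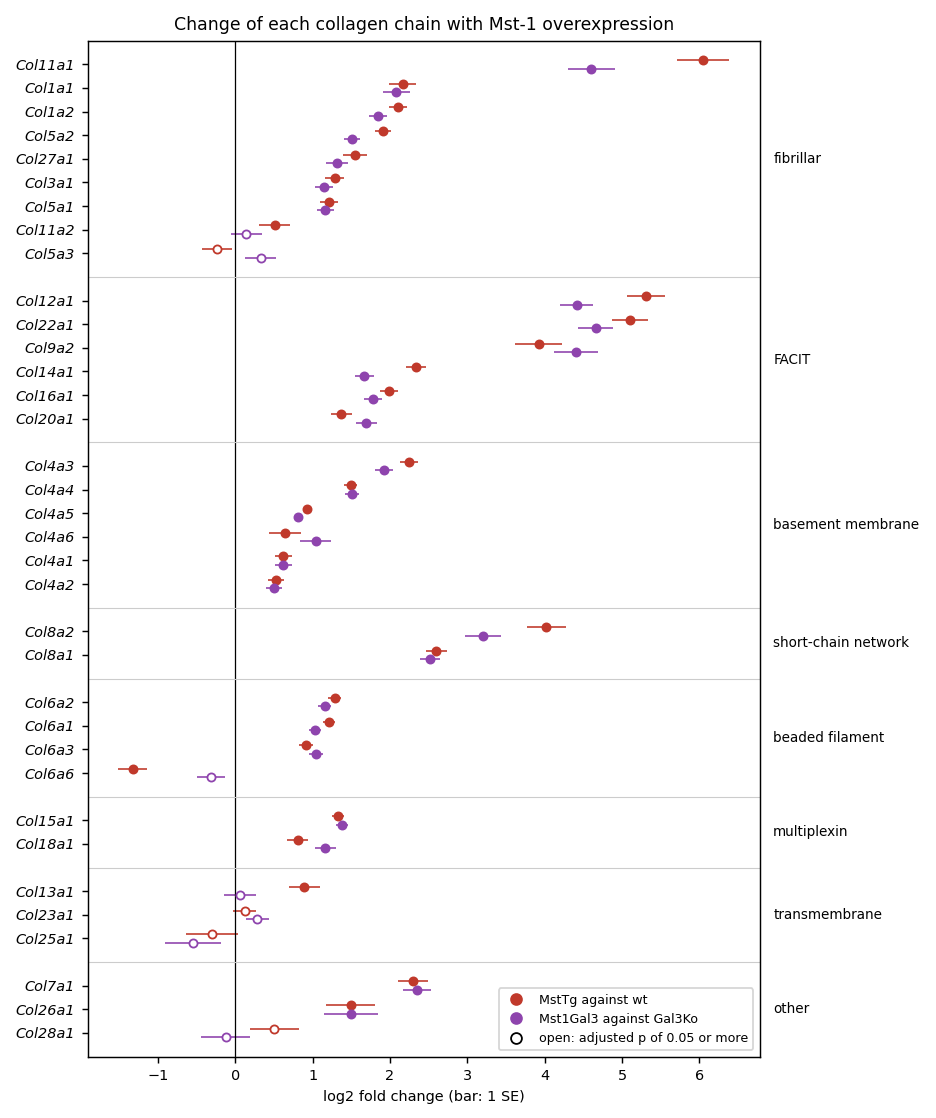
Log2 fold change (x axis, bar 1 SE) of each of the 35 collagen chains (y axis, grouped by class) in MstTg against wt (red) and Mst1Gal3 against Gal3Ko (purple). Filled points pass the adjusted p threshold of 0.05: 30 rises and 1 fall (Col6a6) in the first comparison and 28 rises in the second. Col11a1 lies furthest to the right in the first comparison, at 6.05, followed by the FACIT chains Col12a1 and Col22a1.

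Of the 9 fibrillar chains 8 rose in MstTg against wt, with a class median of 1.55 on the log2 scale, and 7 in Mst1Gal3 against Gal3Ko, with a median of 1.31. Col3a1 encodes the chain of type III collagen, which lies in the same fibrils as type I, and had the highest mean CPM of the class. It was lowest at 185 CPM, 216 at the median and 294 at the highest in wt, and 492, 525.8 and 651 in MstTg. In Gal3Ko the corresponding Col3a1 levels were 139, 203 and 232 CPM, and in Mst1Gal3 the 5 libraries held 351, 399, 431, 571 and 419. No library with Mst-1 overexpression overlapped one without it. The log2 change was 1.28 ± 0.12 (SE) in MstTg against wt (edgeR adjusted p = 2.43e-10) and 1.15 ± 0.12 in Mst1Gal3 against Gal3Ko (1.7e-09).

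The type I chains rose more. Col1a1 ranged from 97.9 to 213 CPM in wt and from 448 to 832 in MstTg, a log2 change of 2.16 ± 0.18 (4.48-fold, edgeR adjusted p = 9.82e-11). Col1a2, the second chain of the type I trimer, rose by 2.10 ± 0.12. Type V chains nucleate fibrils and limit their width. Of these Col5a2 rose by 1.91 ± 0.10 and Col5a1 by 1.21 ± 0.11, while Col5a3 did not pass in either comparison. Col5a3 held 29.6 CPM at the lowest, 40.6 at the median and 44.9 at the highest in wt, and 18.9, 37.8 and 42.0 in MstTg. The Gal3Ko levels were 19.4, 39.5 and 54.1, and in Mst1Gal3 46.4, 43.2, 45.0, 59.7 and 47.4. Within both Mst-1 comparisons the groups overlapped, and its log2 change was -0.24 ± 0.20 in MstTg against wt (adjusted p = 0.319) and 0.33 ± 0.20 in Mst1Gal3 against Gal3Ko (0.174). Every Mst1Gal3 library lay above every MstTg library, though Col5a3 was not called higher there (edgeR adjusted p = 0.142).

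Col11a1, a type XI chain best known from cartilage fibrils, had the largest change of all members in MstTg against wt. It had 1 to 6 counts in the wt libraries, that is 0.0493 CPM at the lowest, 0.167 at the median and 0.274 at the highest. In MstTg it had 7.76, 11.8 and 16.1 CPM. In Gal3Ko it had 0, 0.169 and 0.743 CPM, and in Mst1Gal3 4.32, 6.26, 7.61, 6.62 and 5.61. The MstTg and wt libraries were far apart, and the fitted log2 change was 6.05 ± 0.34 (edgeR adjusted p = 4.55e-15), a size that depends on the few counts in wt. Its partner Col11a2 rose by 0.51 ± 0.20 (adjusted p = 0.0285) with overlapping groups. That call was lost without any 1 of 6 single libraries (wt 1, 2 or 4 or MstTg 4, 5 or 6, adjusted p up to 0.0853), without the 6 libraries with atrial transcripts (0.0583), and without wt 4 and Mst1Gal3 4 together (0.0586). Col27a1, a minor fibrillar chain, rose by 1.55 ± 0.15.

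The sequence around the transcription start is shown for 3 fibrillar chains that rose by different amounts, from 1.28 to 6.05. RefSeq windows (GRCm38.p6) run from 250 bases before to 50 bases after the start, and capitals mark CCAAT or its reverse complement, the box bound by the factor NF-Y. The windows are Col3a1 at chr1:45311288-45311587 (+), Col1a2 at chr6:4505368-4505667 (+) and Col11a1 at chr3:114030290-114030589 (+).
Col3a1: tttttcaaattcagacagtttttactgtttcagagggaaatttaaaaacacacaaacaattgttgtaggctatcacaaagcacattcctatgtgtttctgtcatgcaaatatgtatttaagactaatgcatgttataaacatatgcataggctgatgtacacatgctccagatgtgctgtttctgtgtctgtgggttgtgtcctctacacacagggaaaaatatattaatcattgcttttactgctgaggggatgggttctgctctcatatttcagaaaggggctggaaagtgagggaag
Col1a2: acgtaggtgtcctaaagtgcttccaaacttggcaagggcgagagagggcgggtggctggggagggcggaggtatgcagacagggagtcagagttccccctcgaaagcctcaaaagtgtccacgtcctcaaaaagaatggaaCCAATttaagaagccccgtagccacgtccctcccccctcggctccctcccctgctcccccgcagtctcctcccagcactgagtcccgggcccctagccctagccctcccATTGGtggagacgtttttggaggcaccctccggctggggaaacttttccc
Col11a1: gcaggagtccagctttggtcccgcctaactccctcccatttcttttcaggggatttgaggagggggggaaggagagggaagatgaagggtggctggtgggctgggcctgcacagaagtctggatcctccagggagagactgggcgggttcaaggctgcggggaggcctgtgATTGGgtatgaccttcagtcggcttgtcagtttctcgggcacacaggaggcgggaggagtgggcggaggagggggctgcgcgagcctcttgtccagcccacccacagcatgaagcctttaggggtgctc
The Col3a1 window held no CCAAT and was 37.7% GC. The Col1a2 window held 2 and was 61.0% GC. The Col11a1 window held 1 and was 62.3% GC.

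All 6 FACIT chains rose in both Mst-1 comparisons, with class medians of 3.13 and 3.09 on the log2 scale. Col12a1 encodes type XII collagen, which coats type I fibrils in tissue under tension, and had the highest mean CPM of the class. Its levels were 2.02 CPM at the lowest, 3.59 at the median and 5.23 at the highest in wt, and 117, 147 and 181 in MstTg. In Gal3Ko they were 2.40, 3.59 and 7.47, and in Mst1Gal3 59.8, 90.9, 103, 88.9 and 81.4. The groups with and without Mst-1 did not overlap. Col12a1 rose by 5.31 ± 0.24 on the log2 scale in MstTg against wt (39.7-fold, edgeR adjusted p = 1.91e-15) and by 4.41 ± 0.22 in Mst1Gal3 against Gal3Ko.

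Col22a1, a chain known from tissue junctions such as that of muscle and tendon, was at 0.387 CPM at the lowest, 0.765 at the median and 1.23 at the highest in wt, and at 17.0, 31.1 and 36.6 in MstTg. It was at 0.463, 0.569 and 0.990 CPM in Gal3Ko and at 12.4, 15.0, 20.6, 21.8 and 17.0 in Mst1Gal3. Its log2 change was 5.10 ± 0.23 in MstTg against wt (edgeR adjusted p = 1.62e-16). Here too no Mst-1 library overlapped the others. Col14a1 binds fibrils through decorin. It held 11.7, 17.2 and 25.9 CPM at the lowest, median and highest in wt and 74.4, 88.5 and 98.6 in MstTg. In Gal3Ko Col14a1 held 13.0, 15.1 and 16.7, and in Mst1Gal3 37.0, 45.3, 56.6, 49.7 and 49.0. It rose by 2.34 ± 0.13 and by 1.67 ± 0.13 in the 2 Mst-1 comparisons. The other 3 rose in MstTg against wt by 3.92 ± 0.30 for Col9a2, by 1.98 ± 0.12 for Col16a1 and by 1.37 ± 0.14 for Col20a1. Col9a2 had 2 to 4 counts in the wt libraries.

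**Figure D3:**
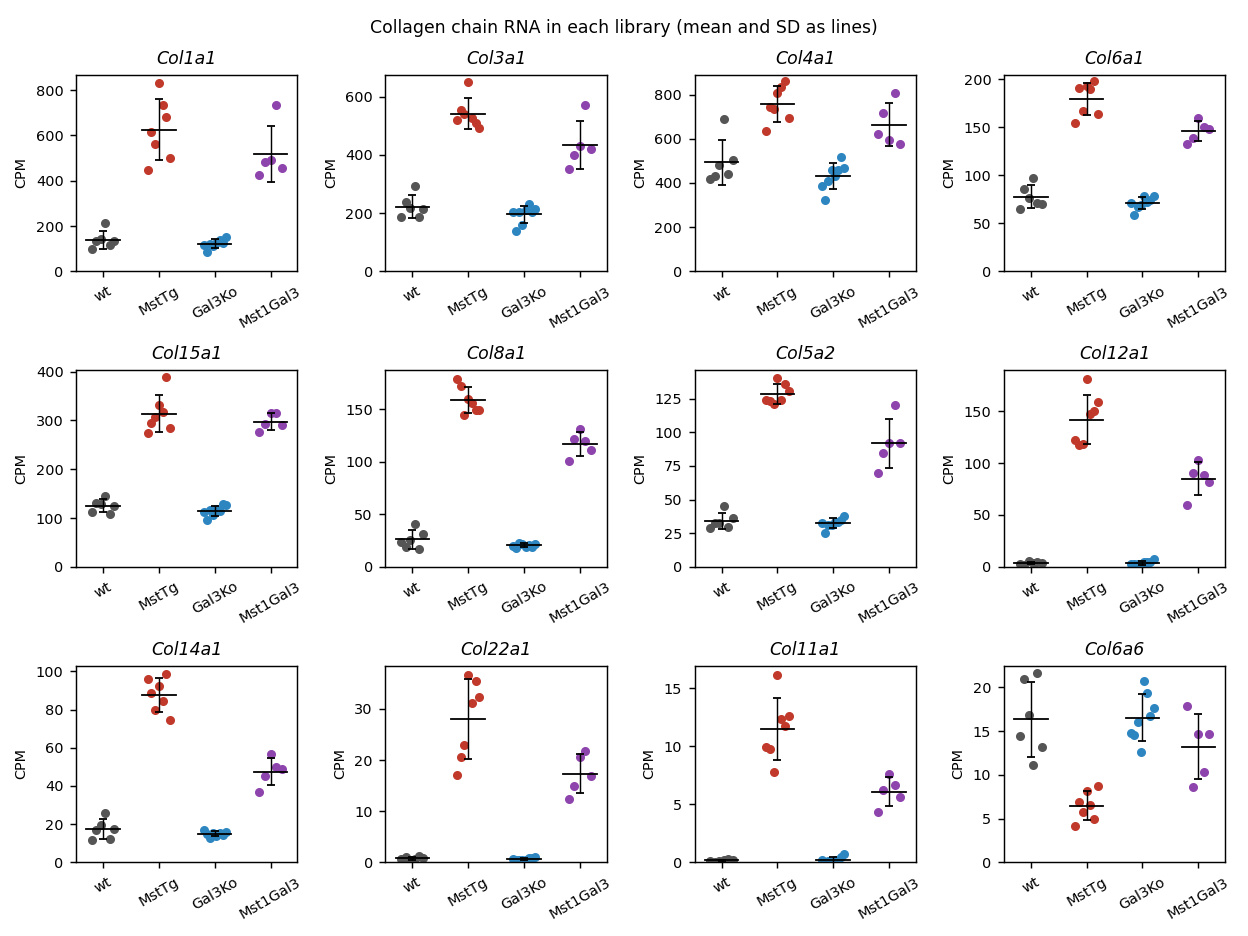
CPM of 12 collagen chains in each library (points), by group, with the group mean and SD as black lines, each panel on a linear axis from 0. For all panels but Col6a6, the MstTg mean is above the wt mean and the Mst1Gal3 mean above the Gal3Ko mean. Col6a6 is lowest in MstTg, at 4.11 to 8.73 CPM.

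All 6 basement membrane chains rose in both Mst-1 comparisons, by less than the fibrillar class at the median (0.79 and 0.93). Col4a1, the chain that with Col4a2 makes the common type IV trimer, was at 416 CPM at the lowest, 462 at the median and 690 at the highest in wt, and at 636, 744 and 864 in MstTg. It was at 324, 444 and 519 CPM in Gal3Ko and at 621, 718, 596, 808 and 575 in Mst1Gal3. The wt and MstTg groups overlapped only through wt 4, and the Gal3Ko and Mst1Gal3 groups did not overlap. Col4a1 rose by 0.62 ± 0.11 in MstTg against wt (1.54-fold, edgeR adjusted p = 1.9e-05), and Col4a2 by 0.53 ± 0.11.

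Of the minor type IV chains, which make other networks, Col4a3, Col4a4 and Col4a5 rose more. Col4a6 rose by an amount like that of Col4a1 and Col4a2. Col4a3 held 8.23, 9.25 and 12.3 CPM at the lowest, median and highest in wt and 41.3, 43.2 and 52.5 in MstTg. In Gal3Ko it held 6.69, 7.94 and 11.2, and in Mst1Gal3 26.04, 31.8, 31.6, 41.1 and 26.7. Col4a3 rose by 2.24 ± 0.12 (edgeR adjusted p = 3.78e-16) with no overlap. Col4a4 rose by 1.49 ± 0.09, Col4a5 by 0.93 ± 0.06 and Col4a6 by 0.64 ± 0.21. Up to 5.65% of the exon bases of Col4a3 overlap the gene C430014B12Rik on the opposite strand, and the strand setting of the count is not given in the sources used here.

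The type IV genes lie in head-to-head pairs, transcribed away from a common stretch of DNA. In the GENCODE M21 annotation the starts of Col4a1 and Col4a2 on chromosome 8 are 21 bases apart, those of Col4a3 and Col4a4 on chromosome 1 are 72 apart, and those of Col4a5 and Col4a6 on chromosome X are 1309 apart. RefSeq windows are shown for the 2 close pairs, because each window spans the starts of both genes of its pair: Col4a1 at chr8:11312777-11313076 (-) and Col4a4 at chr1:82586800-82587099 (-), with CCAAT on either strand in capitals.
Col4a1: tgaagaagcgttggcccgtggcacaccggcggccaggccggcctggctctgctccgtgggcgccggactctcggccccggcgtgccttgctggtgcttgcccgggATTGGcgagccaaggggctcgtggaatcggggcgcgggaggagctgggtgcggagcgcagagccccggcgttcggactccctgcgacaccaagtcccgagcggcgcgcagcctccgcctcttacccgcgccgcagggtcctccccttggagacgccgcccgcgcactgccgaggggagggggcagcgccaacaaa
Col4a4: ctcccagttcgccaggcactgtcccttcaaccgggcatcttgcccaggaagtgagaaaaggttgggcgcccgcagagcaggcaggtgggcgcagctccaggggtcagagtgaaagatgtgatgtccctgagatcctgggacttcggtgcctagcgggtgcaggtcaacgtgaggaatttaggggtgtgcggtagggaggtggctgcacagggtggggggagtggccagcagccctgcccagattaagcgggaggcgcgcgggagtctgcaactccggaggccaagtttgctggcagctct
The first window held 1 CCAAT and the second none. Within a library the ratio of Col4a1 to Col4a2 counts was 1.27 to 1.4032 in wt, with a median of 1.30, and 1.36 to 1.43 in MstTg, with a median of 1.401. The difference was 0.09 on the log2 scale (exact permutation test, two-sided, p = 0.00583, adjusted over 16 tests 0.0155). In Mst1Gal3 against Gal3Ko it was 0.12 (exact permutation p = 0.00155, adjusted 0.00622).

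Across the members, a RefSeq start window was matched for 28 of 35, giving 30 windows. Those without one were Col12a1, Col14a1, Col1a1, Col22a1, Col26a1, Col4a3 and Col5a2. On both strands, CCAAT was found in 10 of the 30 windows and in 37.4% of 32851 windows of all genes. CATTCC, the letters bound by TEAD factors of the Hippo pathway, was found in 5 windows and in 14.7% of all. TATAAA was found in 3 and in 13.6%, the GC box GGGCGG in 21 and in 35.7%, and GTCTAGAC, a palindrome bound by SMAD factors, in none and in 0.213%. None of these motifs lies within another, and a match is only a match of letters.

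Both short-chain network chains rose. Col8a1, a chain of type VIII collagen, which is made in vessel walls and in remodelling hearts, was at 17.1 CPM at the lowest, 24.7 at the median and 41.0 at the highest in wt, and at 145, 156 and 179 in MstTg. It was at 17.7, 20.3 and 23.1 CPM in Gal3Ko and at 101, 121, 131, 120 and 111 in Mst1Gal3. It rose by 2.60 ± 0.13 (6.04-fold, edgeR adjusted p = 2.09e-15), with no overlap, and Col8a2 by 4.02 ± 0.25.

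The beaded filament class split. The 3 classical type VI chains rose in MstTg against wt, Col6a1 by 1.21 ± 0.08, Col6a2 by 1.28 ± 0.09 and Col6a3 by 0.91 ± 0.09. Col6a2, the highest of the class, held 72.1, 77.8 and 97.4 CPM at the lowest, median and highest in wt and 156, 203 and 223 in MstTg. Gal3Ko libraries held 59.3, 76.2 and 87.5 CPM, and in Mst1Gal3 156, 171, 190, 169 and 164. Col6a1 followed at 65.4, 73.5 and 97.2 CPM in wt and 155, 190 and 198 in MstTg. In Gal3Ko Col6a1 held 58.8, 71.9 and 78.9 CPM, and in Mst1Gal3 133, 139, 160, 150 and 148. For both chains the groups with and without Mst-1 did not overlap.

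Col6a6, a longer type VI chain thought to replace the third one in the trimer, was the 1 member that fell. It was at 11.1 CPM at the lowest, 15.6 at the median and 21.6 at the highest in wt, and at 4.11, 6.59 and 8.73 in MstTg. It was at 12.6, 16.4 and 20.7 CPM in Gal3Ko and at 17.8, 8.65, 14.7, 10.3 and 14.7 in Mst1Gal3. All MstTg libraries lay below all wt libraries, while the Mst1Gal3 libraries spread over both ranges. Col6a6 fell by 1.33 on the log2 scale in MstTg against wt (SE 0.18, 2.51-fold lower, edgeR adjusted p = 7.25e-07). In Mst1Gal3 against Gal3Ko its log2 change was -0.32 ± 0.18 (adjusted p = 0.148). The start window of Col6a6, the member that went against the others, is shown at chr9:105828036-105828335 (-), with CCAAT on either strand in capitals.
Col6a6: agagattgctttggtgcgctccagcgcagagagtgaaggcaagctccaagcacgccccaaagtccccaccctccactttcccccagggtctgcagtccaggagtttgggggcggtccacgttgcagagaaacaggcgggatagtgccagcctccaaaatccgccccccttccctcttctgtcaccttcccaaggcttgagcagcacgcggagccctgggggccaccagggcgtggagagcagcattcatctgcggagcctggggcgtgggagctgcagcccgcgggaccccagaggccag
It held no CCAAT in this window.

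Of the multiplexins, Col15a1 lies at the outer face of basement membranes. It held 108, 126 and 145 CPM at the lowest, median and highest in wt and 274, 307 and 389 in MstTg. Gal3Ko levels were 95.4, 116 and 128, and in Mst1Gal3 275, 293, 315, 314 and 291. It rose by 1.33 ± 0.08 (edgeR adjusted p = 8.59e-16) and by 1.38 ± 0.08 in the 2 Mst-1 comparisons, without overlap in either. Col18a1, the source of endostatin, rose by 0.80 ± 0.14 and by 1.16 ± 0.14.

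Transmembrane chains, which stay in the plasma membrane of the cell that makes them, were low and mostly not called. Col23a1, the highest, held 1.55, 2.24 and 3.06 CPM at the lowest, median and highest in wt and 1.83, 2.74 and 2.97 in MstTg. In Gal3Ko it held 1.57, 1.98 and 2.48, and in Mst1Gal3 2.69, 2.31, 2.39, 2.40 and 2.194. These ranges overlapped, with a log2 change of 0.12 ± 0.15 in MstTg against wt (adjusted p = 0.52). Col25a1, the member with the lowest mean count, held 0.246, 0.621 and 0.774 CPM in wt and 0.232, 0.450 and 0.678 in MstTg. In Gal3Ko it held 0.133, 0.486 and 0.784, and in Mst1Gal3 0.277, 0.247, 0.227, 0.379 and 0.576. At 2 to 22 counts a library, a change of its size (-0.30 ± 0.33 on the log2 scale) was not detectable at this depth. Col13a1 rose by 0.89 ± 0.20 in MstTg against wt and was at 0.06 ± 0.21 in Mst1Gal3 against Gal3Ko (adjusted p = 0.816). The difference between those 2 responses was not called (edgeR interaction, adjusted p = 0.201).

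Of the other 3 chains, Col7a1, the anchoring fibril chain, held 0.345, 0.794 and 1.10 CPM at the lowest, median and highest in wt and 2.71, 3.55 and 4.52 in MstTg. In Gal3Ko it held 0.545, 0.842 and 1.11, and in Mst1Gal3 4.08, 3.83, 4.16, 5.73 and 3.78. It rose by 2.29 ± 0.19 with no overlap. Col26a1 rose by 1.49 ± 0.32, and Col28a1 did not pass in either comparison.

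The 2 main fibril chains changed their proportion. The ratio of Col3a1 to Col1a1 counts within a library was 1.38 to 1.89 in wt, with a median of 1.61, and 0.717 to 1.16 in MstTg, with a median of 0.903. In Gal3Ko it was 1.41 to 1.75, with a median of 1.64, and in Mst1Gal3 0.776 to 0.919, with a median of 0.824. No library with Mst-1 overexpression overlapped one without it. The log2 ratio differed by -0.88 between MstTg and wt (exact permutation test, two-sided, p = 0.00117, adjusted over 16 tests 0.00622) and by -0.92 in Mst1Gal3 against Gal3Ko (p = 0.00155 by the same exact test, adjusted 0.00622). These ratios do not depend on how libraries are scaled. They are ratios of counts, not of molecules, since the exons of the 2 genes differ in length.

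**Figure D4:**
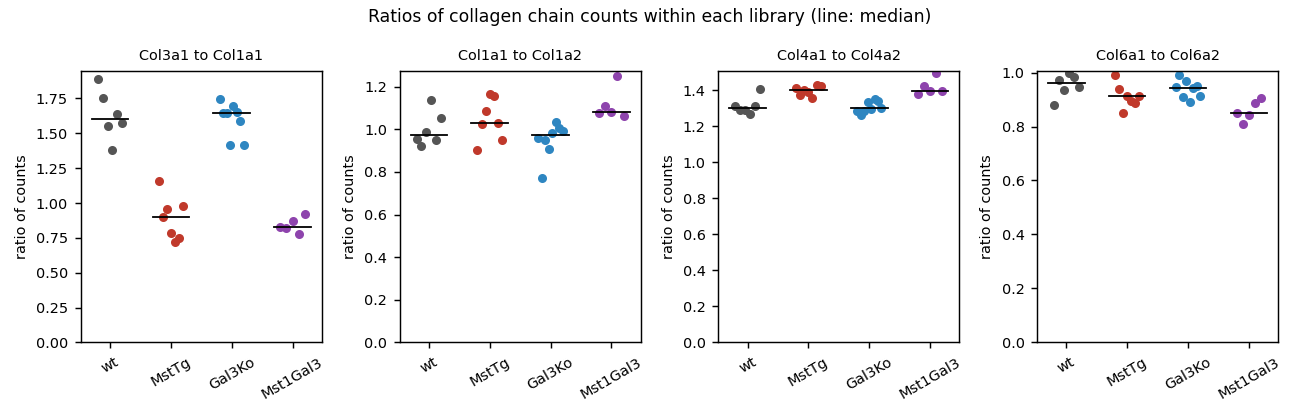
Ratio of the raw counts of 2 collagen chains within each library (points), by group, with the group median as a line, for 4 pairs of chains on linear axes from 0. The Col3a1 to Col1a1 ratio is 1.38 or more in every wt and Gal3Ko library and 1.16 or less in every MstTg and Mst1Gal3 library. The other 3 ratios differ less.

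Partner chains of 1 trimer kept closer ratios. Col1a1 to Col1a2 had medians of 0.972 in wt and 1.03 in MstTg, and the difference of 0.06 on the log2 scale was within the spread (exact permutation p = 0.401, adjusted 0.535). In Mst1Gal3 against Gal3Ko the same ratio differed by 0.24 (exact permutation p = 0.00155, adjusted 0.00622). Col6a1 to Col6a2 differed by -0.06 between MstTg and wt (exact permutation p = 0.129, adjusted 0.259) and by -0.13 in Mst1Gal3 against Gal3Ko (exact permutation p = 0.00311, adjusted 0.00995). No ratio was called in Mst1Gal3 against MstTg or in Gal3Ko against wt.

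The study asked whether loss of galectin-3 alters the ventricle with and without Mst-1. In Mst1Gal3 against MstTg, 8 collagen chains were lower, 1 was higher and 26 did not pass. Over all genes 2.35% were called lower, 2.54% higher and 4.89% in either direction. The members' median log2 change was -0.22 against 0.02 over all genes, and 28 of 35 were negative. The groups did not overlap for 7 members, against 2% of all genes lower and 1.31% higher without overlap. Of these Col11a1, Col12a1, Col14a1, Col4a3, Col5a2 and Col8a1 were lower in Mst1Gal3, and Col5a3, which was not called, was higher. The lower chains were 3 of 6 FACIT, 2 of 9 fibrillar, 1 of 6 basement membrane, 1 of 4 beaded filament and 1 of 2 short-chain network chains.

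The FACIT chain Col14a1 fell by 0.88 on the log2 scale (SE 0.13, edgeR adjusted p = 5.49e-05). It held 74.4 to 98.6 CPM in the MstTg libraries and 37.0 to 56.6 in the Mst1Gal3 libraries. Col12a1 fell by 0.74 (SE 0.19, adjusted p = 0.0244) and Col22a1 by 0.69 (SE 0.17, adjusted p = 0.0145). Col12a1 did not overlap between the 2 groups, and Col22a1 did. The fibrillar chains that fell were Col11a1, by 0.92 (SE 0.21, adjusted p = 0.00853), and Col5a2, by 0.48 (SE 0.10, adjusted p = 0.00414). Col5a2 held 121, 124 and 141 CPM at the lowest, median and highest in MstTg, and 70.1, 84.9, 92.1, 120.2 and 92.1 in Mst1Gal3. It held 29.0, 32.7 and 45.2 in wt and 25.4, 32.6 and 38.0 in Gal3Ko. Only Mst1Gal3 4 came near the MstTg range. Col4a3 fell by 0.55 (SE 0.11, adjusted p = 0.00304), Col8a1 by 0.44 (SE 0.13, adjusted p = 0.0468) and Col6a1 by 0.30 (SE 0.08, adjusted p = 0.0285). Every one of these 8 stayed above its Gal3Ko level, with a call in Mst1Gal3 against Gal3Ko.

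Col6a6 rose by 1.03 ± 0.19 (edgeR adjusted p = 0.0014), with 1 Mst1Gal3 library, at 8.65 CPM, inside the MstTg range. The main type I and III chains were not called: Col1a1 was at -0.27 ± 0.18 (adjusted p = 0.461), Col1a2 at -0.37 ± 0.12 (0.0651) and Col3a1 at -0.32 ± 0.12 (0.139). Col3a1 passed without Mst1Gal3 4 alone (adjusted p = 0.0342) and without wt 4 and Mst1Gal3 4 together (0.0128). Col1a2 passed in 7 of 37 alternatives: with DESeq2, with a replicate block, with only the 2 groups fitted, without wt 1, wt 4 or Mst1Gal3 4 alone, and without wt 4 and Mst1Gal3 4 together. Mst1Gal3 4 was the highest of its group for Col3a1 and Col1a2, so leaving it out lowers their changes by construction. Of the 8 lower calls, 4 were not stable. That of Col8a1 ended in 21 of 37 alternatives (adjusted p up to 0.142), namely with a replicate block and without any 1 of 20 libraries, among them all 7 of MstTg. That of Col6a1 ended without any 1 of MstTg 2, 4 and 6 and Mst1Gal3 1, 2 and 4 (up to 0.104), that of Col12a1 without any 1 of MstTg 4 and Mst1Gal3 1, 4 and 5 (up to 0.0891) and without wt 4 and Mst1Gal3 4 together (0.0552), and that of Col22a1 without Mst1Gal3 1 (0.0605) and with only the 2 groups fitted (0.0769). The count of lower chains was 4 without Mst1Gal3 1 and 5 without MstTg 4.

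**Figure D5:**
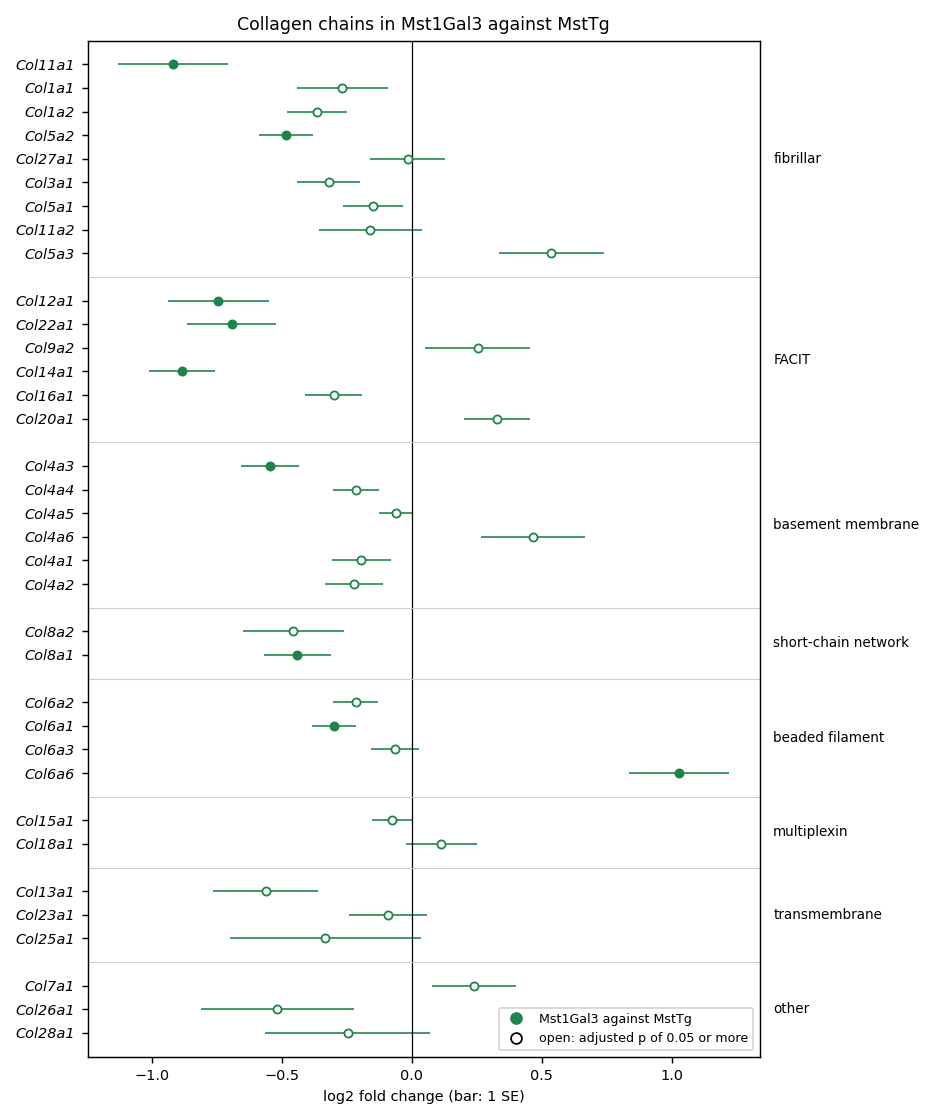
Log2 fold change (x axis, bar 1 SE) of each collagen chain (y axis, by class) in Mst1Gal3 against MstTg. Filled points pass the adjusted p threshold of 0.05: 8 lie to the left of 0, from Col11a1 at -0.92 to Col6a1 at -0.30, and Col6a6 lies to the right at 1.03.

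Without Mst-1 the libraries labelled Gal3Ko and wt did not differ in any collagen chain by this test. In edgeR, DESeq2 and limma-voom the count of called members was 0, 3 members had an unadjusted edgeR p under 0.05, and the lowest adjusted p was 0.461 (Col8a1, log2 change -0.36 ± 0.13). Over all genes 0.354% were called in either direction. The median log2 change of the members was -0.10, and 23 of 35 were negative. As given above, Lgals3 itself did not separate these groups.

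Whether the Mst-1 response differed with the galectin-3 genotype was tested by the interaction, the change from MstTg to Mst1Gal3 minus that from wt to Gal3Ko. No member was called in edgeR, against 0.289% of all genes higher, 0.367% lower and 0.656% in either direction, and 7 members had an unadjusted p under 0.05. The lowest adjusted p were 0.0695 for Col6a6 (1.01 ± 0.26 on the log2 scale) and 0.081 for Col14a1 (-0.67 ± 0.18). Without wt 4 both were called, and DESeq2 on all libraries called both. With wt 4 and Mst1Gal3 4 left out together, a choice made after seeing the data, Col6a6 (adjusted p = 0.0331), Col14a1 (0.00948) and Col5a2 (-0.62, 0.00744) were called. The groups wt and Mst1Gal3 enter the interaction with the same sign. Leaving out their libraries high in a chain therefore lowers its interaction by construction, and leaving out those low in it raises it. Both libraries were the highest of their groups for Col5a2, and MstTg 4, the highest of MstTg for it, was kept. The library wt 4 was the highest of wt for Col14a1 (25.9 CPM) and the lowest for Col6a6 (11.1 CPM). For these chains Mst1Gal3 4 was neither the highest nor the lowest of its group. The calls made without these libraries are therefore no separate support.

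Genes that fold, export, cross-link, assemble, degrade or sense collagen were counted from lists of such genes. In MstTg against wt 28.2% of all genes were called higher, 26.8% lower and 55% in either direction. In Mst1Gal3 against MstTg 2.54% were called higher and 2.35% lower. Counts near these shares do not set a list apart from other genes. Of 17 measured genes for folding and hydroxylation of procollagen, 12 rose and 2 fell in MstTg against wt. P3h2, a prolyl 3-hydroxylase, rose by 3.19 ± 0.09 on the log2 scale and P3h3 by 1.26 ± 0.09. Plod2, which hydroxylates lysines used in cross-links, rose by 0.63 ± 0.07. Plod2 fell by 0.29 in Mst1Gal3 against MstTg (SE 0.07, edgeR adjusted p = 0.00799), and its interaction was called (-0.41 ± 0.09, adjusted p = 0.0319).

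Of 11 genes for export and propeptide cleavage, 8 rose and 2 fell. Pcolce, an enhancer of propeptide cleavage, rose by 1.52 ± 0.09, the cleaving protease Adamts2 by 1.43 ± 0.09 and Pcolce2 by 1.11 ± 0.08. All 5 cross-linking oxidases rose, among them Loxl3 by 2.52 ± 0.14, Loxl2 by 1.99 ± 0.13 and Lox by 1.64 ± 0.15. Loxl2 held a mean of 10.4 CPM in wt, 41.2 in MstTg, 10.3 in Gal3Ko and 24.8 in Mst1Gal3. It fell by 0.73 in Mst1Gal3 against MstTg (SE 0.12, edgeR adjusted p = 0.000372), and its interaction was also called (-0.73 ± 0.18, adjusted p = 0.0457). The interaction calls of Plod2 and Loxl2 lay near the threshold. Alternatives are reported for the members only, so the stability of these calls is not given.

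All 12 regulators of fibril assembly rose, among them periostin (Postn) by 3.32 ± 0.17, biglycan (Bgn) by 2.06 ± 0.10 and decorin (Dcn) by 1.36 ± 0.07. In Mst1Gal3 against MstTg 4 of the 12 fell, Postn by 0.76 (SE 0.16, edgeR adjusted p = 0.00593). Of 11 genes for breakdown and uptake, 7 rose and 3 fell, with the gelatinase Mmp2 higher by 2.07 ± 0.08, the inhibitor Timp1 by 2.85 ± 0.18 and the uptake receptor Mrc2 by 1.56 ± 0.09. Of 9 collagen receptors 6 rose and 1 fell, with Itga11 higher by 1.90 ± 0.14, Itga2 by 1.86 ± 0.22 and Ddr1 by 1.33 ± 0.10. Of 14 collagen-inducing signals and factors 8 rose and 1 fell, with Meox1 higher by 2.62 ± 0.13, Tgfb2 by 1.94 ± 0.07 and Tgfb3 by 1.65 ± 0.08.

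Markers of the cells a ventricle holds were counted in the same way, beside 28.2% of all genes called higher and 26.8% lower in MstTg against wt. Several of the lists below lie near these shares. All 8 fibroblast markers rose in MstTg against wt, and their summed level was 1016 to 1512 CPM in wt, 1901 to 2720 in MstTg, 1020 to 1333 in Gal3Ko and 2166 to 2449 in Mst1Gal3. In Mst1Gal3 against MstTg 1 of these 8 was lower, against 2.35% of all genes. Of 8 endothelial markers 7 fell, from a sum of 953 to 1124 CPM in wt to 677 to 801 in MstTg. Of 6 measured cartilage, tendon and valve markers 5 rose, from 14.9 to 24.8 CPM in wt to 94.1 to 164 in MstTg, and Acan, Cnmd and Hapln1 were not in the table. Of 8 mural cell markers 1 rose and 4 fell, of 8 macrophage markers 1 rose and 1 fell, of 8 cardiomyocyte markers 2 rose and 6 fell, of 5 Schwann cell markers 2 rose and 1 fell, and of 4 mesothelial markers 3 fell. The cardiomyocyte markers, by which heart muscle but not the chamber can be checked, summed to 92585 CPM or more in every library. No marker was at 0 in all libraries of a group. Ddr2, Comp and Scx of these lists are also on the collagen lists. The part of these cell types in the collagen changes was not tested.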

How the data were processed

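RNA of 26 left ventricle libraries was measured. The submitters' processing notes list STAR, bcl2fastq 2.19.1.403 and featureCounts, with GRCm38 as the build, and per the labels' protocols 200 ng of total RNA went into directional libraries after ribosomal RNA depletion. Other tool versions, the annotation, strand and multi-mapping settings were not given in the sources used here. The deposited table holds raw counts per gene for 15249 genes, all of which were used.

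Counts were tested with edgeR 4.0.16 in R 4.3.3: TMM factors, a robust quasi-likelihood fit of all 26 libraries with a mean per group (22 residual degrees of freedom, common biological coefficient of variation 0.114), two-sided, Benjamini-Hochberg adjusted over all genes, threshold 0.05. The filter on low counts removed 0 genes. The SE is the log2 change divided by the square root of the test statistic. CPM are on TMM-adjusted totals, and 1 count is at most 0.0538 CPM. CPM per kb used the union exon length of GENCODE M21. Ratios of raw counts were tested by exact permutation of the group means, adjusted over 16 tests, with scipy 1.17.1. The pipeline was tested on simulated data. No replicate pair looked duplicated (chi-square of 4.90 or more for each degree of freedom). Counting precision does not cover PCR, since there were no molecular identifiers.

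The members, classes and gene lists were chosen with earlier results of these data known. By rule, every collagen chain was reported. Values were given for every Mst1Gal3 library, and as the lowest, median and highest of the larger groups, for the highest member of each class, the 3 largest rises and the 3 lowest changes in MstTg against wt, and every member called in Gal3Ko against wt, Mst1Gal3 against MstTg or the interaction. Of each pathway list the 3 members with the smallest p in MstTg against wt were named. Alternatives were RLE scaling, unscaled library totals, leaving out mitochondrial genes, no filter, a mean of at least 1 CPM, DESeq2 1.42.0, limma-voom (limma 3.58.1), a replicate block, leaving out the libraries with over 30 CPM of atrial transcripts, fitting only the groups compared and leaving out each library. Leaving out wt 4 and Mst1Gal3 4 together was added after seeing the data.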

Additional observations from a re-analysis of the deposited data

Results flagged for a closer look

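Of 140 combinations of a member and a group, 13 held a library that stood apart by a gap test (Dixon, 95% level), which chance does in about 1 of 20. The library wt 4 stood above the other wt libraries for Col1a1 (213 CPM), Col4a1 (690), Col4a2 (545) and Col5a1 (92.1). Mst1Gal3 4 stood above its group for Col1a1 (737 CPM), Col4a5 (106), Col5a3 (59.7) and Col7a1 (5.73).

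In MstTg, replicate 6 stood apart for Col20a1 (5.22 CPM) and Col27a1 (22.8), and replicate 4 for Col3a1 (651). In Gal3Ko, replicate 6 stood apart for Col18a1 (18.2 CPM) and replicate 8 for Col8a2 (2.72). Members of 1 library share its depth and its cell make-up, so these flags are not independent of each other.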

How the results depend on the processing

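Of the 31 chains called in MstTg against wt, 30 were called in every alternative that tested them, and so were all 28 called in Mst1Gal3 against Gal3Ko. The exception, Col11a2, and the 4 unstable calls of Mst1Gal3 against MstTg are given in the report. Unscaled library totals moved the median log2 change of all genes in MstTg against wt from 0.02 to 0.27 and turned the split of all calls from 4302 higher and 4083 lower to 7789 and 2166. There 32 members were higher in MstTg against wt and 30 in Mst1Gal3 against Gal3Ko. No called member changed direction.

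Leaving out single libraries gave 4 to 9 lower chains in Mst1Gal3 against MstTg. The interaction had 0 to 1 higher (Col6a6 without wt 4, MstTg 7 or Mst1Gal3 2) and 0 to 1 lower (Col14a1 without wt 4 or Mst1Gal3 3). DESeq2 gave 1 higher and 1 lower, limma-voom 1 lower, and leaving out wt 4 and Mst1Gal3 4 together 1 higher and 2 lower. The Col6a1 to Col6a2 difference between Mst1Gal3 and MstTg was -0.106 to -0.0665 and was called without MstTg 3.

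Same-numbered libraries deviated little together on average. Over 34 same-numbered pairs the mean correlation of deviations was 0.0346, with 11 above 0.1 and the highest at 0.234, against a mean of -0.0054 over other pairs. A mean over all pairs cannot tell whether some numbers mark a shared batch. With a replicate block 2 chains (Col6a6 and Col5a3) were higher in Mst1Gal3 against MstTg. In a paired test over 6 or 5 same-numbered pairs no ratio difference passed after adjustment, and the smallest exact p such pairs allow is 0.0312 or 0.0625. Differences under this pairing were -0.907 and -0.949 for Col3a1 to Col1a1 in MstTg against wt and Mst1Gal3 against Gal3Ko, 0.294 for Col1a1 to Col1a2 in the latter, 0.0872 and 0.133 for Col4a1 to Col4a2, and -0.132 for Col6a1 to Col6a2 in the latter. Depth limits the chains under about 1 CPM, such as Col25a1.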

Other observations

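Several genes of the collagen lists outside the rule for named genes, chosen after their values were seen, were called in 1 or more comparisons. The stability of their calls is not given either. Mmp9, a gelatinase, fell by 2.29 on the log2 scale in MstTg against wt (SE 0.30, edgeR adjusted p = 8.01e-08) and rose by 1.42 ± 0.33 in Mst1Gal3 against MstTg (0.00751), with a called interaction (1.90 ± 0.41, 0.0218). Timp4, an inhibitor of such proteases that the heart makes, fell by 2.59 in MstTg against wt (SE 0.41, adjusted p = 1.04e-05), and Mmp13, a collagenase, fell by 1.33 (SE 0.28, 0.000179). Adamts3, a procollagen protease, fell by 0.58 in Mst1Gal3 against MstTg (SE 0.11, adjusted p = 0.00078), and its interaction was called (-0.67 ± 0.14, 0.0191).

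In Mst1Gal3 against MstTg the fibril assembly genes Thbs2 (-0.57 ± 0.12, edgeR adjusted p = 0.00344), Sparc (-0.57 ± 0.13, 0.00806) and Aspn (-0.56 ± 0.14, 0.0188) and the collagen-degrading protease Ctsk (-0.48 ± 0.11, 0.00955) fell beside the 8 chains. Creb3l1, a factor of collagen secretion, rose by 0.58 ± 0.16 (0.0231).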
